A study of Mus musculus with 59 samples.

Results

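The nuclear genes of respiratory chain complexes I to IV and of ATP synthase, complex V, were followed through 6 sets of mouse RNA libraries. Members were the Ensembl genes whose symbol begins with Nduf followed by a, b, c, s or v and a number, with Uqcr, with Cox and a number of 4 to 8, or with Atp5, together with Sdha, Sdhb, Sdhc and Sdhd. Pseudogenes marked -ps were left out. This gave 89 of 54838 Ensembl genes, with 40 in complex I, 4 in complex II, 8 in complex III, 19 in complex IV and 18 in complex V. Atp5o was listed under 2 identifiers, so the 89 genes have 88 symbols. RefSeq classes 3 of the 89 members as pseudogenes, and they were kept because their symbols are not marked -ps. Membership follows the symbol: Ndufa4, which is known as a complex IV subunit, counts here under complex I, and Ndufab1 and Cyc1 fall outside the pattern.

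The libraries came from male mice of 12 weeks after 2 weeks of high-fat or low-fat feeding, and the series title names an RNA labelling called iTag. All groups share an FVB.129P2-Cyp3a13tm1Ahs strain that also carries the deletion Del(5Cyp3a57-Cyp3a59)1Ahs and the transgene Tg(APOE-CYP3A4)A1Ahs. It lacks Cyp3a13 and the Cyp3a57 to Cyp3a59 interval and carries human CYP3A4, a drug-metabolizing enzyme, under APOE sequences. Pull-down libraries are read here as RNA recovered through the tag and inputs as the RNA it was recovered from. The cells that carried the tag are not named in the labels. High-fat and low-fat groups held 3 libraries each in liver mRNA and VsWAT small RNA pull-down and input, and in VsWAT total RNA, which has no pull-down. Kidney mRNA had 3 high-fat and 2 low-fat libraries in each fraction. Liver small RNA had 3 high-fat and 2 low-fat pull-down libraries and 3 input libraries per diet, and plasma small RNA had 2 libraries in each of its 4 groups. VsWAT is named as in the labels, which do not spell it out. In bulk RNA, fewer cells of a type and less RNA per cell cannot be told apart.

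Complex I takes electrons from NADH, complex II from succinate, complex III passes them to cytochrome c and complex IV to oxygen. Complexes I, III and IV pump protons across the inner mitochondrial membrane, and complex V uses the gradient to make ATP. All of complex II and most subunits of the others are encoded in the nucleus, while a few core subunits of complexes I, III, IV and V are encoded in mitochondrial DNA. Proximal tubule cells of the kidney and brown adipocytes are rich in mitochondria. Nuclear respiratory factor 1, the ETS factor GABP, estrogen-related receptors and YY1 are known to act at promoters of many of these genes.

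Promoter windows are shown for 4 members on which results below turn: Uqcr11 had the largest fall in the liver mRNA pull-down, Sdhb fell most within complex II in both mRNA sets, Atp5l rose in the pull-down of all 4 tissue sets, and Cox8b differed most between tissues. Each runs 5′ to 3′ on the gene's strand from 250 bases before to 50 bases after the annotated start (RefSeq, GRCm38.p6). Capitals mark GCATGCGC, a core of the nuclear respiratory factor 1 site, CCGGAAG for ETS factors, AAGGTCA for estrogen-related receptors and AAGATGGC for YY1, on either strand.
Uqcr11 (chr10:80406772-80407071, minus strand): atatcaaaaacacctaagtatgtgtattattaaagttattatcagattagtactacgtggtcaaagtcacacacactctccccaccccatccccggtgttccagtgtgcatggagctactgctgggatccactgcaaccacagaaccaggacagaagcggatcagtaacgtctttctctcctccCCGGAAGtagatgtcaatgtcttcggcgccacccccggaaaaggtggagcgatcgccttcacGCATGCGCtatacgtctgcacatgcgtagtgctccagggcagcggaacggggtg
Sdhb (chr4:140961021-140961320, plus strand): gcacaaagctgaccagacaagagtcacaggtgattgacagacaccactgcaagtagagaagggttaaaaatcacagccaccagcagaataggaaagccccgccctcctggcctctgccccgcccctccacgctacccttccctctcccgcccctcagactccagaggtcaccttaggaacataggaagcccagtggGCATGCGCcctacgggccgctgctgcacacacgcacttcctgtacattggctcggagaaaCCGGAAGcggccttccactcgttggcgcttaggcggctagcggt
Atp5l (chr9:44920693-44920992, minus strand): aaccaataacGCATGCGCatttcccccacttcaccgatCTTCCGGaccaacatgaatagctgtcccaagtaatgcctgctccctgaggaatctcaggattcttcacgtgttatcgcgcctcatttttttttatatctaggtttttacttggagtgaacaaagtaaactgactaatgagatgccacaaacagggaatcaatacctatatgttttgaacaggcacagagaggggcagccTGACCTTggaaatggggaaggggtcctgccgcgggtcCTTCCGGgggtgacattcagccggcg
Cox8b (chr7:140900397-140900696, minus strand): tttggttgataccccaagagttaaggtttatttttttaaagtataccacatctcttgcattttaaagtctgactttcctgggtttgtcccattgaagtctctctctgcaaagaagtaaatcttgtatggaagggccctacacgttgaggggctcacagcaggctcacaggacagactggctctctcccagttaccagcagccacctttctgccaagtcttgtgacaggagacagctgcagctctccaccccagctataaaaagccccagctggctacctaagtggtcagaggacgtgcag
The Uqcr11 and Sdhb windows each held 1 GCATGCGC and 1 CCGGAAG, and the Atp5l window held 1 GCATGCGC, 2 CCGGAAG and 1 AAGGTCA. The Cox8b window held none of these letters. RefSeq gave 73 windows for 68 members. GCATGCGC stood in 13.7% of these against 2.71% of all 32851 windows, CCGGAAG in 21.9% against 8.86%, AAGGTCA in 11.0% against 4.72% and AAGATGGC in 13.7% against 2.75%. These matches are letters in a window and do not show binding. No matches of the 4 motifs overlap in the windows shown.

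Library totals ran between 3033702 and 4942158 counts in liver mRNA, 3741335 and 19645443 in kidney mRNA, 573697 and 3608065 in liver small RNA, 881578 and 2580104 in VsWAT small RNA, 221875 and 828030 in plasma and 2556411 and 7940309 in VsWAT total RNA. Markers of the labelled tissues were present: 8 hepatocyte markers summed to between 64121 and 101160 CPM (counts per 1000000, scaled by the trimmed mean of M values) in liver mRNA inputs, 6 proximal tubule markers to between 63040 and 92041 CPM in kidney inputs, and 8 adipocyte markers to between 13127 and 14722 CPM in VsWAT small RNA inputs. Some input libraries stood apart. Liver low-fat input 1 gave 2.67% of its counts to the members, against 1.26% in each of low-fat inputs 2 and 3 and 1.55% to 1.68% in the high-fat inputs, and it was above the other 5 inputs for 65 of 75 tested members. In the same library 6 proximal tubule markers summed to 231 CPM, against 9.98 to 56.7 CPM in the other liver inputs, Slc5a2 being at 0 in all 6. Its sums were also above those of the other inputs for erythroid markers, at 2210 against 336 to 765 CPM, fibroblast markers, at 452 against 204 to 232 CPM, macrophage markers, at 99.6 against 59.2 to 73.6 CPM, and hepatocyte markers, at 101160 against 64121 to 90086 CPM. The part of these levels in the results was not tested. In kidney, high-fat inputs 2 and 3 were both above high-fat input 1 for 65 of 79 members and both below it for 11. No share of all genes stands beside the counts of 65 of 75 and 65 of 79 members, so they are not read as particular to the members. Values without single libraries are given with several of the results below.

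The pull-down of liver mRNA held less of nearly every tested subunit mRNA than the input, in all 5 complexes. Of 75 members tested, 70 fell and 1 rose, and 36.1% of all 10865 genes tested fell and 37.7% rose (edgeR quasi-likelihood test, adjusted p under 0.05). The members' median log2 change was −1.64, a 3.11-fold fall, against 0.02 over all genes. Counts by complex were 33 of 35 lower in complex I, 4 of 4 in II, 8 of 8 in III, 11 of 11 in IV and 14 of 17 in V, with medians of −1.79, −1.21, −1.56, −1.85 and −1.40. For 60 members every pull-down library was below every input library, against 20.6% of all genes, and for 1 every pull-down library was above, against 23.0%. Marker lists of several cell types were lower in the same pull-down. The 8 hepatocyte markers summed to 37628 to 47808 CPM in pull-down and 64121 to 101160 CPM in input libraries, with 5 lower and 2 higher. Endothelial markers summed to 22.3 to 35.5 CPM in pull-down and 93.4 to 148 CPM in input libraries, and macrophage markers to 6.96 to 18.3 CPM in pull-down and 59.2 to 99.6 CPM in input libraries. Fibroblast markers summed to 23.9 to 49.7 CPM in pull-down and 204 to 452 CPM in input libraries, and erythroid markers to 64.0 to 212 CPM in pull-down and 336 to 2210 CPM in input libraries. All tested members of these 4 lists were lower (edgeR). Their part in the result was not tested. As a share of all counts, members took 0.623% to 0.748% in the pull-down libraries and 1.26% to 2.67% in the inputs.

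In complex I, Ndufa11, an accessory membrane subunit, had the largest fall. It stood at 11.0, 15.6 and 17.3 CPM in high-fat and 19.5, 22.8 and 11.6 CPM in low-fat pull-down libraries, against 52.8, 87.9 and 65.1 CPM in high-fat and 199, 46.3 and 49.3 CPM in low-fat inputs. All pull-down values were below all inputs, and the change was −2.33 ± 0.36 on the log2 scale (SE; edgeR adjusted p = 7.24e-05). Ndufs1, the largest iron-sulfur subunit of the core, had the smallest fall called in the complex. It stood at 139, 126 and 141 CPM in high-fat and 159, 131 and 147 CPM in low-fat pull-down libraries, against 218, 232 and 226 CPM in high-fat and 191, 172 and 182 CPM in low-fat inputs. The groups again did not overlap, at a log2 change of −0.53 ± 0.08 (edgeR adjusted p = 4.86e-05). The 7 nuclear core subunits, which carry the flavin, the iron-sulfur clusters and the quinone site, had a median of −1.50, and the 28 tested accessory genes −1.86; this division was made after the values were seen and was not tested. Ndufa5 and Ndufa12 were not called, at −0.55 ± 0.36 and −0.75 ± 0.40.

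Complex II is succinate dehydrogenase, shared with the tricarboxylic acid cycle. Sdhb, its iron-sulfur subunit, stood at 73.8, 80.0 and 88.2 CPM in high-fat and 121, 112 and 86.1 CPM in low-fat pull-down libraries, against 319, 345 and 333 CPM in high-fat and 592, 314 and 315 CPM in low-fat inputs. Its log2 change was −1.99 ± 0.16 (edgeR adjusted p = 2.84e-07) with no overlap. The flavoprotein gene Sdha changed by −1.54 ± 0.07, and the membrane anchors Sdhc and Sdhd by −0.86 ± 0.16 and −0.87 ± 0.11 (edgeR adjusted p = 1.49e-08, 0.000418 and 1.07e-05).

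In complex III, Uqcr11, a small accessory subunit, stood at 34.2, 43.3 and 28.6 CPM in high-fat and 47.7, 50.8 and 25.8 CPM in low-fat pull-down libraries, against 201, 308 and 220 CPM in high-fat and 591, 98.5 and 101 CPM in low-fat inputs. Pull-down and input did not overlap, and this was the largest fall among the members in this set, at −2.72 ± 0.42 (edgeR adjusted p = 7.5e-05). The Rieske iron-sulfur protein gene Uqcrfs1 fell by 1.48 ± 0.18 on the log2 scale and the core protein genes Uqcrc1 and Uqcrc2 fell by 1.29 ± 0.11 and 1.16 ± 0.25 (edgeR adjusted p = 9.59e-06, 3.81e-07 and 0.00108). In complex IV, the small subunits Cox6a1, Cox8a and Cox7a2 changed by −2.43 ± 0.32, −2.41 ± 0.29 and −2.38 ± 0.34, Cox4i1 by −1.92 ± 0.26 and Cox5a by −0.86 ± 0.15 (edgeR adjusted p at most 0.00019).

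In complex V, the alpha and beta subunits of the catalytic head, Atp5a1 and Atp5b, fell by 1.25 ± 0.08 and 1.30 ± 0.10 on the log2 scale (edgeR adjusted p = 3.75e-08 and 1.79e-07). Atp5j2, subunit f of the membrane part, fell by 2.28 ± 0.34 (edgeR adjusted p = 5.71e-05). Atp5l, subunit g of the membrane part, went the other way. It stood at 37.5, 39.6 and 41.2 CPM in high-fat and 18.4, 23.7 and 19.1 CPM in low-fat pull-down libraries, against 10.6, 15.3 and 10.2 CPM in high-fat and 9.24, 6.52 and 9.98 CPM in low-fat inputs. Every pull-down library was above every input, and the log2 change was 1.49 ± 0.15 (edgeR adjusted p = 1.72e-06). RefSeq lists close copies of Atp5l as pseudogenes, and the way the counting treated shared reads is not given, so its level is uncertain. Atp5g2 and Atp5k were not called, at −0.20 ± 0.37 and −0.97 ± 0.49. Without low-fat input 1, 70 members were lower and 1 higher, and the median was −1.32, with Ndufa5 and Atp5k turning to 0.088 and 0.050. Ndufa12 and Atp5k passed the test without low-fat input 2 or 3, and Ndufa5 without low-fat input 2.

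**Figure D1:**
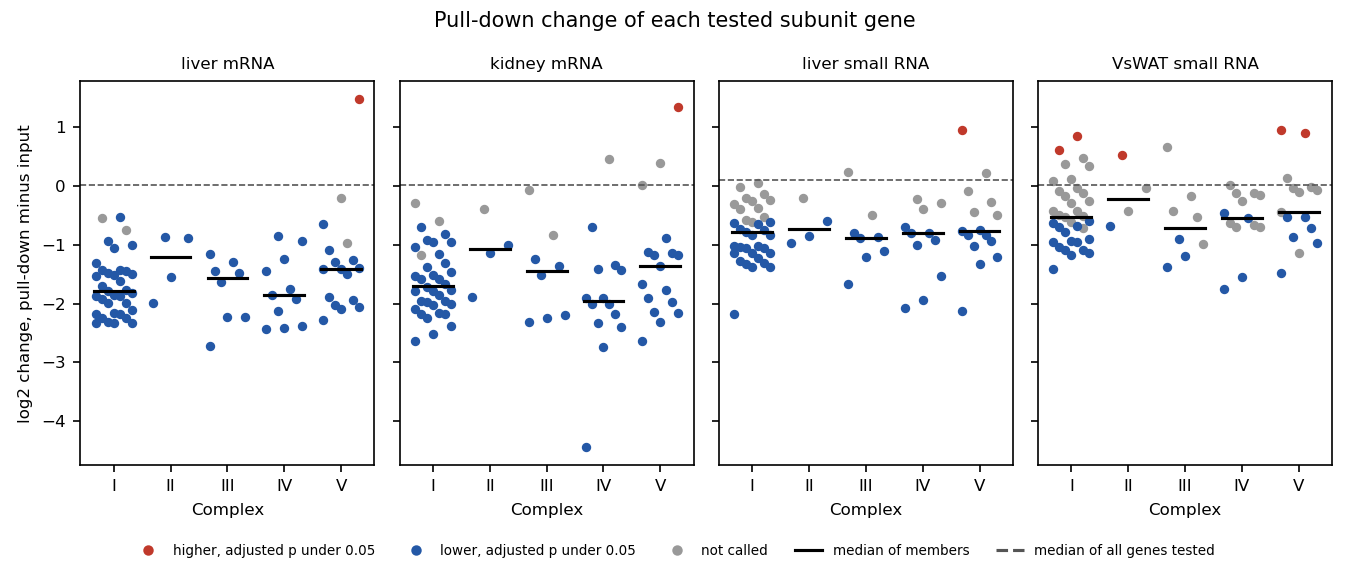
Log2 change of each tested member in pull-down minus input (vertical axis) by complex (horizontal axis) in 4 sets; points are genes, coloured by the edgeR call, solid bars are medians over members and dashed lines medians over all genes tested. In liver and kidney mRNA nearly all points lie below the dashed line, with Atp5l a red point of complex V in every set, while in the small RNA sets the points lie closer to it.

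Kidney mRNA showed the same direction. Of 79 members tested, 69 were lower and 1 higher in the pull-down, against 26.4% lower and 26.6% higher among all 15023 genes tested (edgeR). The median was −1.66, against 0.01 over all genes, and for 58 members every pull-down library was below every input, against 18.3% of all genes. Lower counts were 33 of 36 in complex I, 3 of 4 in II, 6 of 8 in III, 13 of 14 in IV and 14 of 17 in V. Members took 0.917% to 1.54% of pull-down counts and 2.18% to 3.91% of input counts. Leaving out each library in turn gave 65 to 71 lower. Here too several cell type markers were lower. Proximal tubule markers summed to 15447 to 30806 CPM in pull-down and 63040 to 92041 CPM in input libraries, but only 3 of 6 were lower (edgeR). Their median log2 change was −0.34, and with library totals it was −0.13, with 1 higher and 2 lower. Cubn of this list overlapped, at 238 to 385 CPM in pull-down and 190 to 562 CPM in input libraries. Distal nephron markers summed to 703 to 1585 CPM in pull-down and 2727 to 3242 CPM in input libraries, with 5 of 5 lower (edgeR). Endothelial and fibroblast markers were lower in all 4 and 5 tested and macrophage and erythroid markers in 3 of 4 each (edgeR). Their part was not tested.

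Cox7a2, the subunit VIIa form of most tissues, stood at 101, 86.2 and 102 CPM in high-fat and 190 and 120 CPM in low-fat pull-down libraries, against 750, 1293 and 1276 CPM in high-fat and 704 and 501 CPM in low-fat inputs. The groups were far apart, with a log2 change of −2.74 ± 0.21 (edgeR adjusted p = 1.17e-05). Ndufa7 in complex I, Uqcr10 in III and Atp5mpl in V were the largest falls of their complexes at −2.64 ± 0.24, −2.32 ± 0.23 and −2.63 ± 0.20 (edgeR adjusted p = 1.7e-05, 1.81e-05 and 1.17e-05). Sdhb stood at 157, 119 and 132 CPM in high-fat and 244 and 145 CPM in low-fat pull-down libraries, against 596, 880 and 859 CPM in high-fat and 440 and 498 CPM in low-fat inputs. It was below every input in every pull-down library, at −1.90 ± 0.19 (edgeR adjusted p = 1.84e-05). The muscle-type isoform Cox8b had 1 count in all 5 pull-down libraries together and 55 in the 5 inputs, so the input level was 26.0-fold the pull-down level with a counting interval of 4.48 to 1047 (95%, exact). Atp5l was higher here too, at 33.8, 51.8 and 41.6 CPM in high-fat and 22.4 and 39.8 CPM in low-fat pull-down libraries, against 15.8, 12.0 and 9.81 CPM in high-fat and 19.3 and 13.9 CPM in low-fat inputs. Again no input reached the lowest pull-down library, and the log2 change was 1.34 ± 0.22 (edgeR adjusted p = 0.000358).

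Of the 75 members tested in both mRNA sets, 64 fell in both and 1, Atp5l, rose in both, against 22.4% lower and 25.1% higher in both among all 10358 genes (edgeR). These sets share no library, but share the library kit and the counting. Across the 75 members the changes in liver and kidney had a Pearson r of 0.86 and a Spearman rho of 0.85, against 0.76 and 0.78 across all 10358 genes tested in both. The kidney genes not called were 9, among them the complex III core proteins Uqcrc1 at −0.83 ± 0.39 and Uqcrc2 at −0.07 ± 0.39, and Cox5a at 0.46 ± 0.43. The inputs of Uqcrc2 were themselves spread, at 148, 38.0 and 28.2 CPM in high-fat and 194 and 294 CPM in low-fat libraries, and those of Cox5a at 84.1, 15.1 and 12.7 CPM and 116 and 171 CPM. High-fat inputs 2 and 3 were the low ones for both genes, while the pull-down libraries stayed at 90.2 to 203 CPM for Uqcrc2 and 78.0 to 141 CPM for Cox5a. Without high-fat input 1, Uqcrc2 turned to 0.49, Cox5a was called higher at 1.17 and Uqcrc1 lower at −1.05, and without low-fat input 1 Uqcrc1 was called at −1.15. Without low-fat pull-down 2, Uqcrc2 also turned positive.

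**Figure D2:**
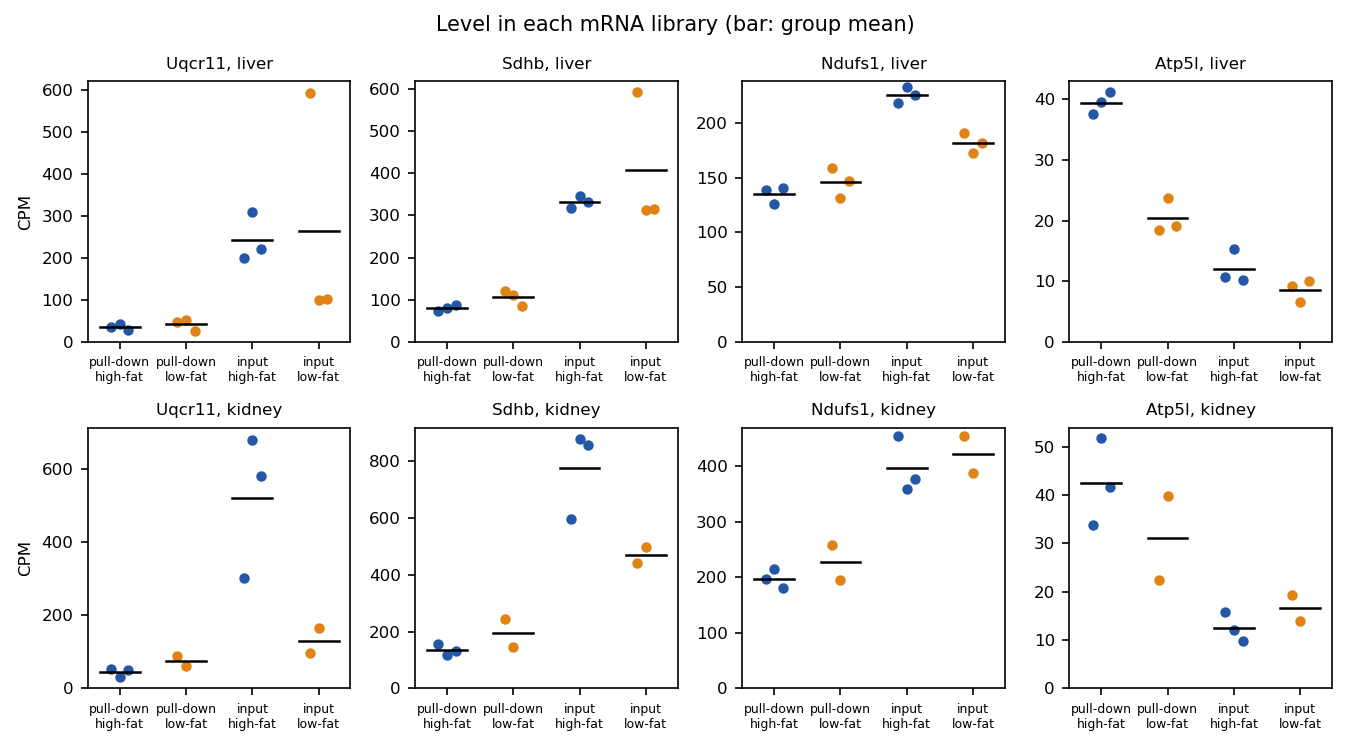
Normalised level in CPM (vertical axis, from 0) of Uqcr11, Sdhb, Ndufs1 and Atp5l in each liver (top) and kidney (bottom) mRNA library by fraction and diet; points are libraries and bars group means. The pull-down points lie below the inputs for the first 3 genes in liver and in kidney and above them for Atp5l, and low-fat input 1 of liver stands apart for Uqcr11 and Sdhb.

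The tested difference between the pull-down changes of the tissues was called for 2 of 77 members, both lower in liver, against 8.94% lower and 3.75% higher among all 13724 genes (edgeR). For Sdha the difference, liver minus kidney, was −0.57 ± 0.17 (edgeR adjusted p = 0.0293), and for Atp5h, subunit d of the peripheral stalk, −1.20 ± 0.33 (edgeR adjusted p = 0.0178). Atp5h stood at 87.4, 69.1 and 64.8 CPM in high-fat and 98.2, 75.0 and 64.9 CPM in low-fat liver pull-down libraries, against 143, 117 and 141 CPM and 180, 80.1 and 65.2 CPM in the liver inputs. In kidney it stood at 152, 145 and 125 CPM in high-fat and 168 and 126 CPM in low-fat pull-down libraries, against 102, 116 and 103 CPM and 63.0 and 157 CPM in the inputs. The calls moved with single libraries: without liver low-fat input 1, 20 members were called, all higher in liver, and with library totals none was called. No share of all genes is given for these settings, so the 20 calls are not read as particular to the members.

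Genes around the chain were given by lists, to be read against 36.1% of all genes lower and 37.7% higher in the liver pull-down and 26.4% lower and 26.6% higher in the kidney pull-down. Of 8 tested subunits and carriers outside the pattern, such as Cyc1, all fell in the pull-down of both mRNA sets, with medians of −1.30 in liver and −1.34 in kidney. Assembly factors had 30 of 45 lower and 3 higher in liver and 29 of 47 lower and 3 higher in kidney, at medians of −0.69 and −0.73. Of 13 tricarboxylic acid cycle genes, 9 were lower and 1 higher in liver and 11 were lower in kidney. The mitochondrially encoded subunits went the other way in liver, with 6 of 7 tested higher and a median of 0.63, and 1 of 7 was higher in kidney, at a median of 0.25. Of 13 regulators of mitochondrial biogenesis, among them the coactivator Ppargc1a and the factor Nrf1, 9 were higher and 1 lower in liver and 6 were higher in kidney. Each count is by edgeR at an adjusted p under 0.05.

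In the small RNA sets the direction of the members' change depended on the scaling. In liver small RNA, 49 of 73 members were lower and 1 higher in the pull-down, against 28.3% lower and 27.0% higher among all 8401 genes (edgeR), with a median of −0.80 against 0.10. With library totals in place of trimmed-mean factors, 25 were higher and 5 lower, at a median of 0.32 against 1.23 over all genes, and members took 0.383% to 0.624% of pull-down and 0.294% to 0.485% of input counts. The members' median lay below that of all genes under both scalings. In the same pull-down 6 of 8 hepatocyte markers were lower and none higher, at a median of −0.73. Of 13 tricarboxylic acid cycle genes 8 were lower and 1 higher, and of 11 biogenesis regulators 6 were higher. All tested endothelial, macrophage, fibroblast and erythroid markers were lower. None of 7 mitochondrially encoded subunits was called, at a median of 0.13 (edgeR). With library totals those 7 and 3 hepatocyte markers were higher. Their part was not tested. In VsWAT small RNA, 29 of 75 were lower and 5 higher, against 23.0% lower and 20.9% higher among all 11339 genes (edgeR), at a median of −0.52 against 0.01, and library totals gave 19 higher and 7 lower, at 0.10 against 0.64. The shares of all genes called with library totals are not given for these sets, so the counts under that scaling are not read as particular to the members.

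In liver small RNA, Cox8a, the common form of subunit VIII, stood at 15.1, 31.6 and 8.98 CPM in high-fat and 13.1 and 14.1 CPM in low-fat pull-down libraries, against 33.7, 85.8 and 59.8 CPM in high-fat and 63.5, 65.6 and 65.5 CPM in low-fat inputs. Each pull-down library was below each input, at −1.94 ± 0.28 (edgeR adjusted p = 3.51e-05). Atp5d, the delta subunit of the central stalk, and Ndufb6 changed by −2.13 ± 0.22 and −2.17 ± 0.35 (edgeR adjusted p = 1.71e-06 and 9.27e-05). In VsWAT, Cox8a stood at 38.2, 18.6 and 16.5 CPM in high-fat and 29.4, 17.9 and 36.6 CPM in low-fat pull-down libraries, against 98.6, 87.4 and 85.4 CPM and 73.9, 98.0 and 82.9 CPM in the inputs. This was the largest fall there, at −1.74 ± 0.22 with no overlap (edgeR adjusted p = 2.29e-05).

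The 1 member higher in the liver small RNA pull-down was Atp5l at 0.95 ± 0.37 (edgeR adjusted p = 0.0367). It kept the call without high-fat input 3, low-fat input 2 or high-fat pull-down 1 or 2, and lost it without any of the other 7 libraries.

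The 5 genes higher in the VsWAT pull-down were Atp5l at 0.95 ± 0.33, Atp5f1 at 0.91 ± 0.16, Ndufb4 at 0.86 ± 0.30, Ndufb3 at 0.61 ± 0.22 and Sdhd at 0.54 ± 0.18 (edgeR adjusted p = 0.0314, 0.000378, 0.0314, 0.0314 and 0.0232). Atp5f1, subunit b of the peripheral stalk, stood at 161, 152 and 139 CPM in high-fat and 212, 110 and 197 CPM in low-fat pull-down libraries, against 87.8, 82.1 and 94.4 CPM and 77.9, 84.7 and 90.0 CPM in the inputs, without overlap. In liver small RNA it stood at 97.8, 124 and 113 CPM in high-fat and 96.4 and 102 CPM in low-fat pull-down libraries, against 127, 129 and 123 CPM and 124, 138 and 121 CPM in the inputs. The difference of the changes, liver minus VsWAT, was −1.10 ± 0.24 (edgeR adjusted p = 0.00548), the only call of 76 members, against 4.72% lower and 2.98% higher among all genes. Atp5f1 kept its call without any single library. Atp5l lost it without high-fat input 1 or 2, low-fat input 3, high-fat pull-down 2 or low-fat pull-down 3, and Sdhd without high-fat input 3 or low-fat input 1 or 2. Ndufb4 kept it only without low-fat input 1, high-fat pull-down 2 or 3 or low-fat pull-down 2, and Ndufb3 only without high-fat input 3, low-fat input 1, high-fat pull-down 3 or low-fat pull-down 2 or 3. Without VsWAT low-fat input 3, 20 members were lower and 2 higher in the VsWAT pull-down. In VsWAT all 7 tested mitochondrially encoded subunits were higher in the pull-down, at a median of 2.41, and 12 of 42 assembly factors were higher and 1 lower, against 20.9% of all genes higher and 23.0% lower. With library totals these lists had 7 of 7 and 27 of 42 higher and none lower. The share of all genes called with library totals is not given, so these 2 counts are not read as particular to the lists. Endothelial, fibroblast and erythroid markers were lower in all 4, 5 and 4 tested and macrophage markers in 4 of 5, and 5 of 8 adipocyte markers were higher and 2 lower (edgeR).

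Across the 4 sets, 26 of the 73 members tested in all were lower in each and 1, Atp5l, was higher in each, against 7.30% lower and 9.34% higher in each among all 6989 genes (edgeR). With library totals 3 members were lower in each and Atp5l was still the 1 higher, against 1.04% and 29.0% of all genes. Liver and VsWAT small RNA had an r of 0.78 across 73 members, against 0.82 across 7613 genes, and kidney mRNA with VsWAT small RNA 0.32 across 75 members against 0.32 across 10333 genes. In plasma, 24 members passed the filter and none was called, against 0.490% of all 3469 genes (edgeR). DESeq2 also called none, and no member had an unadjusted p under 0.05. The mitochondrially encoded mt-Nd2, mt-Nd1, mt-Nd4, mt-Nd5, mt-Cytb and mt-Co1 were higher in the plasma pull-down, against 0.173% of all genes. Their log2 changes ran between 4.95 and 6.68 (edgeR adjusted p at most 0.0244), and mt-Nd6 at 4.82 was not called. The spread there was wide: Ndufa8 stood at 16.7 and 80.9 CPM in high-fat and 75.4 and 0 CPM in low-fat pull-down libraries, against 6.42 and 0 CPM and 9.89 and 8.24 CPM in the inputs, and replicate plasma libraries differed by 40.01 to 86.2 times counting noise, as chi-square per degree of freedom over genes. Kidney high-fat mRNA inputs reached 92.3 and liver low-fat mRNA inputs 62.5 on the same measure, so it does not set plasma apart.

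High-fat feeding was set against low-fat feeding within each fraction. In liver mRNA input, 5 of 75 members were lower and none higher on the high-fat diet, against 13.6% lower and 8.87% higher among all genes (edgeR). Uqcrc1 stood at 125, 121 and 128 CPM in high-fat and 179, 280 and 256 CPM in low-fat inputs, with no overlap and a log2 change of −0.93 ± 0.15 (edgeR adjusted p = 0.00111). Atp5g1, which encodes the c ring subunit, stood at 47.0, 37.4 and 47.8 CPM in high-fat and 162, 72.6 and 73.1 CPM in low-fat inputs, also without overlap (−1.20 ± 0.27, edgeR adjusted p = 0.00808). Ndufa8, Ndufv1 and Atp5a1 changed by −0.72 ± 0.24, −0.59 ± 0.17 and −0.34 ± 0.11 (edgeR adjusted p = 0.0488, 0.0252 and 0.0403). Over all members the median was −0.15 with low-fat input 1 and 0.76 without it, when 53 members were higher and 4 lower. The direction of the diet difference for most members in this fraction thus turned on 1 library. That library differed from low-fat inputs 2 and 3 over many genes, at a chi-square per degree of freedom of 62.5 and 58.8. The shares of all genes called without it are not given, so the counts of 53 and 4 are not read as particular to the members. Of the 5 calls, Ndufv1 was lost without any 1 high-fat input, Ndufa8 without any library but low-fat inputs 2 and 3, and Atp5a1 without any but low-fat input 1 and low-fat pull-down 1. Without any 1 high-fat input, 2 members were called.

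In liver mRNA pull-down, Atp5l was the only member called, higher on the high-fat diet, against 2.85% higher and 3.10% lower among all genes (edgeR). Its values, given above, did not overlap between diets, and the log2 change was 0.95 ± 0.19 (edgeR adjusted p = 0.0106). It lost the call without low-fat pull-down 1 or 3, when no member was called, and 10 members were called without low-fat input 1, of which 9 were lower. The share of all genes called without low-fat input 1 is not given. The median over members was −0.22.

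In kidney mRNA input no gene was called for diet, members included, so the percentage called was 0 among all 15023 genes (edgeR). Of the members 66 of 79 had a positive change, with a median of 0.77 against −0.02, and 60.8% had an unadjusted p under 0.05 against 17.2% of all genes. All 3 high-fat inputs were above both low-fat inputs for 50 members and below for 3, against 16.0% above and 15.2% below among all genes. By complex the medians were 0.98 in I, 0.15 in II, 0.73 in III, 0.87 in IV and 0.47 in V. Uqcr11 stood at 302, 681 and 583 CPM in high-fat and 95.8 and 166 CPM in low-fat inputs, at 1.99 ± 0.38 (edgeR adjusted p = 0.129). Other genes moved in the same inputs: erythroid markers summed to 1094, 2018 and 1934 CPM in high-fat and 938 and 662 CPM in low-fat inputs, at a median log2 change of 1.06 over 4 tested. Aqp2, of the collecting duct, stood at 181, 330 and 294 CPM in high-fat and 73.2 and 166 CPM in low-fat inputs. Calb1, of the same distal nephron list, stood at 294, 220 and 223 CPM in high-fat and 275 and 197 CPM in low-fat inputs. The 5 markers of that list summed to 2774 to 3242 CPM in high-fat and 2727 to 2760 CPM in low-fat inputs. The mitochondrially encoded mt-Co1 stood at 28747, 6657 and 5032 CPM in high-fat and 35410 and 23216 CPM in low-fat inputs, the low values being again those of high-fat inputs 2 and 3. The whole mitochondrially encoded list overlapped, with sums of 133572 to 184706 CPM in high-fat and 112532 to 194859 CPM in low-fat inputs. No member of the marker lists was called, and their part in the members' shift was not tested. DESeq2 called 25 members higher, and 47 were called higher by edgeR without high-fat input 1, which lies nearer to the low-fat inputs. The shares of all genes called under these settings are not given, so the counts are not read as particular to the members. In kidney pull-down the sign was the other way, with a median of −0.39, 73 of 79 negative and no call (percentage called 0 among all genes, edgeR and DESeq2 none among members). There 15.2% of members had an unadjusted p under 0.05, against 4.78% of all genes. With 1 library left out at a time, the median in kidney pull-down ran between −0.65 and −0.094. Only 2 low-fat pull-down libraries stand behind this sign. Low-fat pull-down 1 gave 1.54% of its counts to the members, against 0.917% to 1.10% in the high-fat pull-down libraries.

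In VsWAT total RNA none of 76 members was called, against 0.278% of all 12248 genes (edgeR), and DESeq2 called none. The median was −0.31 against −0.01, 68 members were negative, and 30.3% had an unadjusted p under 0.05 against 13.03% of all genes. Low-fat library 3 was above the other 5 libraries for 56 members. The share of all genes for which it was above is not given, so this count is not read as particular to the members. With 1 library left out at a time, the median over members ran between −0.40 and −0.13, and no member was called. For Cox5a the values were 24.8, 19.4 and 22.6 CPM in high-fat and 27.8, 24.4 and 67.1 CPM in low-fat libraries, and for Uqcrc1 they were 38.1, 27.9 and 35.3 CPM and 37.8, 35.8 and 94.9 CPM. In both genes the low-fat library that stood high was the third. No member was called for diet in any small RNA fraction by edgeR or DESeq2. The percentage called among all genes was 0.0357 in liver pull-down, 0.202 in liver input, 0.406 in VsWAT pull-down, 0.0794 in VsWAT input and 0 in plasma, and the members with an unadjusted p under 0.05 were 2, 0, 2, 1 and 0 in each plasma fraction.

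**Figure D3:**
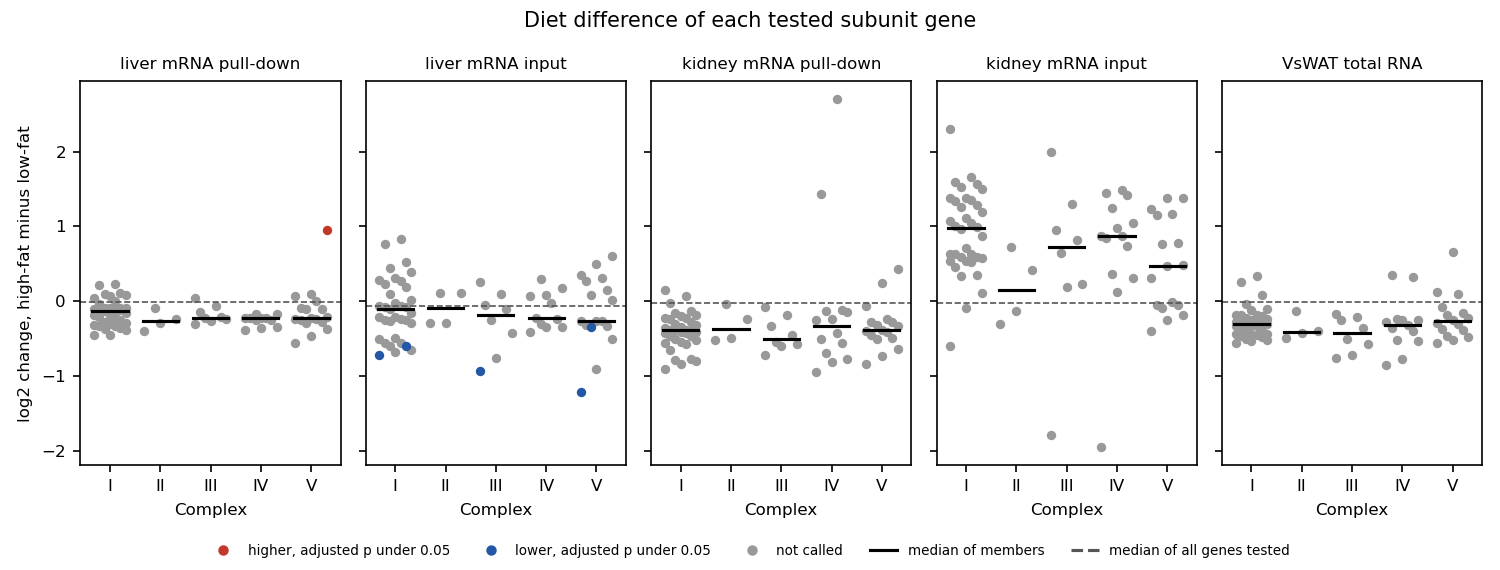
Log2 change of each tested member in high-fat minus low-fat libraries (vertical axis) by complex (horizontal axis) in 5 fractions; points are genes, solid bars medians over members and dashed lines medians over all genes tested. Kidney input points lie mostly above the dashed line and kidney pull-down points mostly below it, none being called, and the 5 lower calls in liver input and Atp5l in liver pull-down are coloured.

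Between tissues, liver mRNA input was set against kidney mRNA input. Of 77 members, 4 were higher and 17 lower in liver, against 29.4% higher and 33.5% lower among all genes (edgeR). The lower ones were 8 of 35 in complex I, 1 of 4 in II, 1 of 8 in III, 4 of 13 in IV and 3 of 17 in V, and Sdhd, Uqcrq, Cox5a and Atp5h were the higher ones. Atp5b, the beta subunit, was lower by −0.83 ± 0.14 and Ndufs1 by −0.61 ± 0.11 (edgeR adjusted p = 2.59e-05 and 5e-05). The count moved with 1 library and with the scaling: 63 members were lower without liver low-fat input 1, and 55 with library totals, with none higher in either case. The shares of all genes under these settings are not given, so the counts are not read as particular to the members. The 4 higher calls were each lost without most libraries. Sdhd kept its call only without kidney high-fat input 1, and Atp5h only without liver low-fat input 3, liver low-fat pull-down 1 or kidney low-fat input 2. Uqcrq kept it only without liver low-fat input 2 or 3, liver low-fat pull-down 3 or kidney high-fat pull-down 2, and Cox5a only without kidney high-fat input 1, kidney low-fat input 2 or either kidney low-fat pull-down.

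The largest tissue differences lay in the tissue-specific isoforms of complex IV. Cox7a1, the muscle and heart form of subunit VIIa, had 0.644, 1.13 and 0.889 CPM in high-fat and 2.52, 0.466 and 0.539 CPM in low-fat liver inputs, against 20.5, 40.6 and 33.3 CPM in high-fat and 9.32 and 12.9985 CPM in low-fat kidney inputs. All liver values were below all kidney values, at −3.89 ± 0.38 (edgeR adjusted p = 7.6e-09). Cox6b2, known from testis, had 2 counts in all liver inputs together and 206 in the kidney inputs, a kidney level 35.3-fold that of liver with a counting interval of 9.65 to 294 (95%, exact). Cox8b had no count in any of the 6 liver inputs and 55 counts in the 5 kidney inputs, at least 6.29-fold higher in kidney against a floor of 3 counts over the liver group. The lower limit of the 2-sided exact 95% interval was 4.94.

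**Figure D4:**
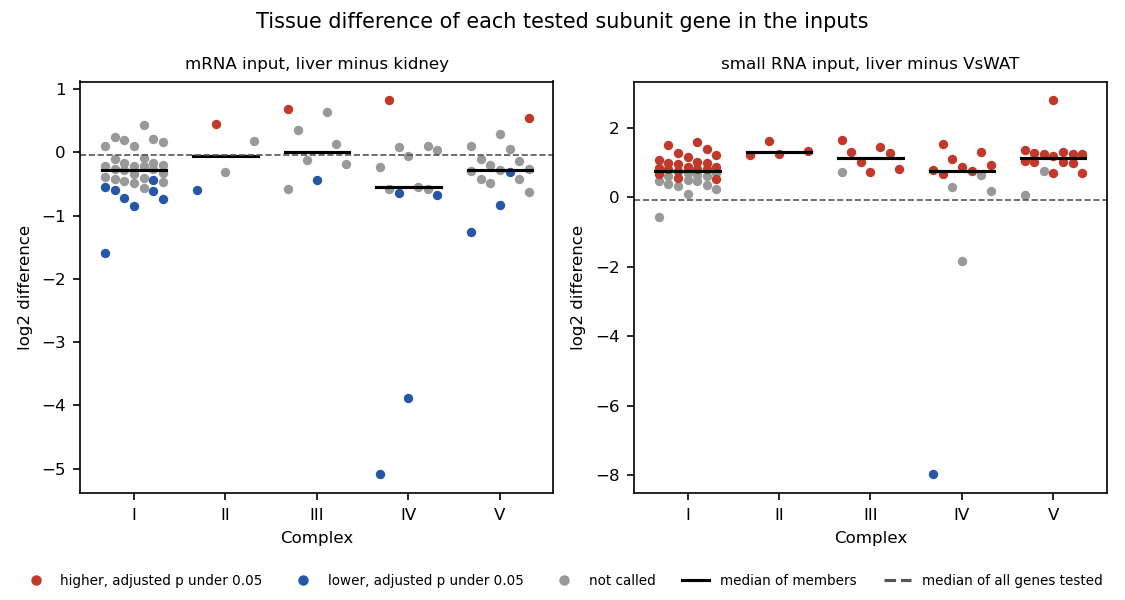
Log2 difference of each tested member between input libraries, liver minus kidney mRNA (left) and liver minus VsWAT small RNA (right), by complex; points are genes, solid bars medians over members and dashed lines medians over all genes tested. The low points of complex IV are Cox7a1 and Cox6b2 on the left and Cox8b on the right, whose fitted value rests on liver libraries with no count and is no bound.

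In small RNA inputs, 54 of 76 members were higher and 1 lower in liver than in VsWAT, against 25.4% higher and 27.8% lower among all 11979 genes (edgeR), and library totals gave 8 higher and 8 lower. The share of all genes under library totals is not given here. Atp5g1 stood at 8.03, 37.5 and 53.1 CPM in high-fat and 48.6, 33.7 and 59.1 CPM in low-fat liver inputs, against 6.63, 7.94 and 11.5 CPM and 13.1, 6.66 and 5.92 CPM in VsWAT inputs. Only liver high-fat input 1 lay within the VsWAT range, and the difference was 2.80 ± 0.44 (edgeR adjusted p = 8.42e-06). The lower member was Cox8b, with no count in the 6 liver inputs and 136 in the 6 VsWAT inputs, at least 49.997-fold higher in VsWAT against the same kind of floor, with a lower limit of 40.1 in the exact interval.

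Within VsWAT, Cox8b and Cox7a1 varied from library to library within each diet. Cox8b stood at 39.8, 6.62 and 40.8 CPM in high-fat and 12.5, 3.81 and 29.6 CPM in low-fat small RNA inputs. Cox7a1 followed at 10.8, 5.29 and 19.1 CPM and 1.14, 0.951 and 9.47 CPM. The libraries high in both were high-fat 1 and 3 and low-fat 3. The brown fat markers Ucp1, the uncoupling protein, and Cidea, a lipid droplet protein, were high in the same libraries: Ucp1 had 47.2, 2.65 and 21.7 CPM in high-fat and 0.569, 0 and 18.9 CPM in low-fat inputs, and Cidea 25.7, 2.65 and 24.2 CPM and 0.569, 0 and 42.6 CPM. In the total RNA libraries Cox8b stood at 21.7, 9.28 and 39.8 CPM in high-fat and 8.08, 4.06 and 38.6 CPM in low-fat libraries, and Ucp1 at 14.3, 2.20 and 29.0 CPM and 0.713, 0.369 and 32.5 CPM, with the same numbers high. The whole brown fat list of 5 markers summed to between 10.6 and 81.2 CPM in high-fat and 5.12 and 79.3 CPM in low-fat small RNA inputs. The part of brown fat cells in these levels was not tested.

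**Figure D5:**
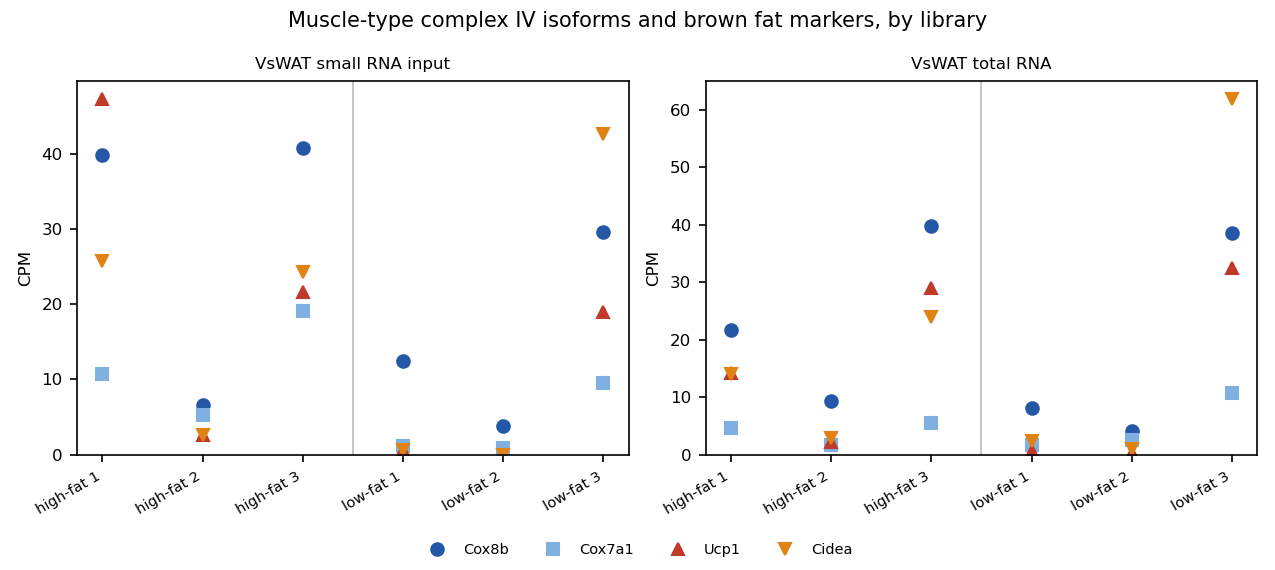
Normalised level in CPM (vertical axis, from 0) of the complex IV isoform genes Cox8b and Cox7a1 and the brown fat markers Ucp1 and Cidea in each VsWAT library (horizontal axis), small RNA input on the left and total RNA on the right. All 4 genes are higher in high-fat 1 and 3 and low-fat 3 than in the other 3 libraries of each panel.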

How the data were processed

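RNA of liver, kidney and VsWAT was extracted with NucleoZOL and that of plasma with Tri reagent BD, and all libraries were made with the Diagenode CATS small RNA kit, per the labels' protocols. The deposited values are raw counts per gene made by the authors. The submitters' processing notes name STAR, HTSeq and the mm10 build, while the sources used here do not give versions, annotation, strand or the handling of reads that match several genes. Each library lists 55273 features, of which 435 are tRNA genes, and symbols were found for 54723 of 54838 Ensembl genes. Members and lists were chosen with earlier results of these data known, and the motifs and the division into core and accessory subunits after the values were seen. Promoter sequences are those of RefSeq for GRCm38.p6.

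Counts were tested set by set with edgeR 4.0.16 (R 4.3.3, limma 3.58.1), using the quasi-likelihood test, filterByExpr (minimum count 10, minimum total 15), trimmed-mean (TMM) factors and Benjamini-Hochberg adjustment over all genes tested, at 0.05. The contrasts set pull-down against input (mean of both diets), high-fat against low-fat in each fraction, and, in joint fits, liver minus kidney (mRNA) and liver minus VsWAT (small RNA). SE is the log2 change over the root of F. CPM are counts over the TMM-scaled total of the filtered genes. The script was tested on simulated data. The shares of calls common to several sets and the marker sums by library were computed after the values were seen. Counting intervals are exact at 95%, a count of 0 was set to 3 counts as the floor, and both cover counting error only. Named genes were taken per contrast as the largest change in each direction in each complex, with a fixed list of known subunits, of which a part is printed, and genes called were added after their values were seen.

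Whether each library is its own animal is not labelled, and p-values here cover only library-to-library spread, which may be technical. Liver mRNA low-fat inputs 2 and 3 and high-fat inputs 1 and 3 were close, with a chi-square per degree of freedom of 1.13 and 1.18, little more than sampling noise. The other pairs of these groups were at 62.5 and 58.8 (low-fat) and 4.47 and 5.08 (high-fat). Whether the close pairs are separate samples cannot be told, and they were kept apart. In the kidney low-fat groups, the plasma groups and the liver small RNA low-fat pull-down, leaving out a library leaves 1, which is assumed to vary like the others. Alternatives were RLE factors, library totals, no filter, DESeq2 1.42.0, the replicate number as a block, and each library left out in turn.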

Additional observations from a re-analysis of the deposited data

Results flagged for a closer look

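The pull-down change differed between tissues, by the edgeR test of the difference itself, for 3 members. In Sdha it was −0.57 ± 0.17 (SE), liver minus kidney. This call was lost under RLE factors at −0.42, library totals at −0.38, no filter at −0.44, DESeq2 at −0.42 the replicate block at −0.56 and the summed close liver input pairs at −0.29. Leaving out 1 library ended it in 14 of 22 cases, and it held only without liver high-fat pull-down 2 or 3, liver low-fat pull-down 2, kidney high-fat input 1, kidney low-fat input 2, kidney high-fat pull-down 2 or 3 or kidney low-fat pull-down 2. In Atp5h it was −1.20 ± 0.33, liver minus kidney, and was lost with library totals at −0.96 and with the summed pairs at −1.03. Atp5h lost it as well without any liver high-fat input, liver low-fat input 1, kidney high-fat input 2 or 3, kidney low-fat input 1 or kidney low-fat pull-down 1. In Atp5f1 it was −1.10 ± 0.24, liver minus VsWAT, and was lost with library totals at −0.68 but not without any single library. All groups hold at most 3 libraries, too few for a gap test of a single outlying value.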

How the results depend on the processing

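Of 1232 values of 65 named member results under alternatives, 1018 kept their direction and side of the threshold, 188 lost the call, 18 gained it and 8 reversed. Of 360 counts of called members, 305 stayed within 1.5 times the reported count and 55 did not. Among these, library totals gave 30 in the liver small RNA pull-down, 55 in liver minus kidney input, 16 in liver minus VsWAT input and 0 in both tissue differences of the pull-down change. Without the filter, diet counts were 12 in liver mRNA input, 2 in liver mRNA pull-down, 38 in kidney input, 1 in VsWAT small RNA pull-down and 6 in VsWAT total RNA, while liver minus kidney gave 48 for the input and 5 for the pull-down change. DESeq2 gave 25 for kidney input diet, 1 for the pull-down change of liver minus kidney and 2 for that of liver minus VsWAT, and RLE factors gave 1 for liver minus kidney. Summing the close liver input pairs, chosen after seeing the data, gave 2 for liver input diet and 0 for the pull-down change of liver minus kidney. None of the counts in this section stands beside a share of all genes called under the same setting.

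Leaving out each library in turn gave 22 to 40 in the VsWAT small RNA pull-down, 2 to 57 for diet in liver mRNA input, 0 to 10 in liver mRNA pull-down, 0 to 50 in kidney input and 0 to 1 in VsWAT small RNA pull-down. It gave 14 to 63 for liver minus kidney input, 0 to 20 for its pull-down change and 1 to 3 for that of liver minus VsWAT. Counts ran between 71 and 74 in the liver mRNA, 66 and 73 in the kidney and 42 and 55 in the liver small RNA pull-down, and between 45 and 60 in liver minus VsWAT input. Kidney input diet gave 1 without low-fat input 1. The reversed values were 0.024 for Atp5g2 in liver and 0.15 for Uqcrc2 in kidney with library totals. Without single libraries Ndufa5 ran from −0.77 to 0.088 and Atp5k from −1.23 to 0.050 in liver, Uqcrc2 from −0.42 to 0.49 in kidney, and Uqcrq from −0.00080 to 0.72 in liver minus kidney. The cause was not tested.

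Replicate numbers did not pair the libraries: no family of 3 or more same-numbered pairs had every correlation over 0.1, the closest being the liver mRNA pull-down across diets at 0.0996 to 0.115. With the replicate block, diet counts were 0 in liver mRNA input and 14 in liver mRNA pull-down, Uqcrc2 in kidney turned to 0.095, and the VsWAT count was 47. In plasma 24 of 89 members passed the filter on low counts.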
